A study of Rattus norvegicus with 36 samples.

Results

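Brain-derived neurotrophic factor (BDNF, gene Bdnf) and its receptor TrkB (gene Ntrk2) were followed in the nucleus accumbens of 9 Sprague-Dawley rats aged 8 weeks, as 2 of the 31546 Ensembl gene IDs in the count tables. The rows were chosen by ID, ENSRNOG00000047466 for Bdnf and ENSRNOG00000018839 for Ntrk2. The tables hold no gene names, and 0 of their IDs have a symbol in the RefSeq table used here (assembly GRCr8). The pairing of the 2 IDs with Bdnf and Ntrk2 was therefore given with the choice of genes and was not checked against a table. Both genes had counts in all 9 rats and both passed the filter on low counts.

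The rats had been through cocaine conditioned place preference, in which a drug is paired with a compartment and the time later spent there is recorded. The Vulnerable group (3 rats) and the Non Vulnerable group (3 rats) received cocaine at 20 mg/kg by intraperitoneal injection, 4 injections in all, in sessions of 20 min that alternated with saline sessions 6 h apart. The Saline group (3 rats) received saline in both compartments. The test of preference came on the day after conditioning ended. The series separates rats that expressed the preference from rats that did not, and no sample label states which of these Vulnerable means. Only cocaine rats were sorted by phenotype, so in a comparison with Saline the drug and the sorting cannot be told apart. The tissue label names the nucleus accumbens, and the extraction protocol also names the caudate putamen. Markers of cell types and of neighbouring regions could not be matched to IDs, so the tissue label was not checked.

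BDNF is a secreted neurotrophin, made as a precursor and released from neurons with activity. It binds the receptor tyrosine kinase TrkB, which signals through the MAP kinase, phosphoinositide 3-kinase and phospholipase C gamma pathways. In the striatum much of the BDNF protein is known to arrive along axons from cortex and midbrain, while TrkB is made by striatal neurons and, in a truncated form without the kinase, by astrocytes. Gene counts add up all transcripts of a gene, so truncated and full-length Ntrk2 could not be told apart. Reads of Bdnf transcripts that start at different promoters were likewise counted together.

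Bdnf is known for its several alternative promoters, some of them responsive to neuronal activity and cAMP. Of the 2 genes, 1 (Bdnf) matched the RefSeq promoter table (build GRCr8), with 6 windows of 300 bases numbered along the plus strand, each from 250 bases before a transcript start to 50 after it. Both strands were searched for CGTCA, the core of the cAMP response element, and for the E-box CACGTG; neither motif overlapped the other here. The core was in 1 Bdnf window, against 21.2% of the 33469 windows of the table, and the E-box in 1, against 6.42%. The full element TGACGTCA, which contains the core, was in 0 of the 6 Bdnf windows and in 1.83% of all windows. Windows 5 and 6 share 244 bases, so the 6 are not separate stretches. The stretches that hold them are shown because a single count per rat pools the output of these starts. Capitals mark the core, 35 bases before the transcript start of window 4, and the E-box, 19 bases after the transcript start of window 2. The matches describe the letters only.
Bdnf, window 4, chr3:116637608-116637857, plus strand: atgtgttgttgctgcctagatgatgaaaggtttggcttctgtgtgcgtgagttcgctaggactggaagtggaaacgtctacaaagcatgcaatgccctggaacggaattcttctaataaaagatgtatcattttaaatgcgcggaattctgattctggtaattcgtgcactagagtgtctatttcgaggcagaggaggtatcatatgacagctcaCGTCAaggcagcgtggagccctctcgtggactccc
Bdnf, window 2, chr3:116620846-116620867, plus strand: gccatccgCACGTGacaaaacg

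Each rat was sequenced as 4 technical replicate libraries, which were summed to totals of 41213813 to 64081679 counts per rat. Whether these replicates are separate preparations or repeat runs of the same preparation was not established. Over the 13623 to 14317 genes per rat with enough counts for this check, the 4 libraries of a rat agreed within sampling noise. The chi-square per degree of freedom was 1.004 to 1.02. Bdnf had too few counts for it in Saline rats 1 and 2, Vulnerable rats 2 and 3 and Non Vulnerable rat 1. The 10 most counted genes of each rat took 18.23% of the counts in Non Vulnerable rat 1 and 10.51% to 13.26% in the other rats. Levels are given as CPM, counts scaled to a common total after TMM adjustment of the libraries. In bulk tissue, fewer cells of a type and less RNA per cell cannot be told apart.

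Bdnf, the ligand, was weakly counted and varied widely between rats of the same group. In Saline rats 1 to 3 it stood at 0.613, 0.336 and 2.65 CPM, from 31, 14 and 123 counts. Vulnerable rats 1 to 3 had 1.88, 0.314 and 0.553 CPM, from 97, 16 and 37 counts. Non Vulnerable rats 1 to 3 had 0.686, 2.19 and 3.69 CPM, from 31, 107 and 149 counts. High and low rats occurred in every group, and all 3 groups overlapped. The highest rat had 11.7 times the level of the lowest. Inside a group, the highest rat had 5.98 (Vulnerable), 7.89 (Saline) and 5.38 (Non Vulnerable) times the level of the lowest. Non Vulnerable rat 3, Saline rat 3, Non Vulnerable rat 2 and Vulnerable rat 1 were the highest, in that order, and the other 5 rats lay between 0.314 and 0.686 CPM. The widest step between neighbours in this order was 2.74-fold, between Non Vulnerable rat 1 and Vulnerable rat 1.

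Counting error was small beside this spread. The exact 95% Poisson interval of Saline rat 2, which had the fewest counts, ran from 0.183 to 0.563 CPM, and that of Saline rat 3 from 2.2 to 3.16 CPM. In Non Vulnerable rats 1 and 3 the intervals were 0.466 to 0.974 and 3.12 to 4.33 CPM. Intervals of the highest and lowest rat did not meet within any group. These intervals cover counting error only. Single libraries held 0 to 46 Bdnf counts, and the 0 was a library of Saline rat 2, whose other libraries brought the rat to 14. Between the 4 libraries of a rat the chi-square test of Bdnf counts gave unadjusted p values from 0.00719 (Saline rat 2) to 0.873, with 1 of 9 rats under 0.05.

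Bdnf was also variable for a gene of its level. Its SD of log2 CPM within groups was 1.31. Among the 1850 other genes tested whose mean lay within 2-fold of its mean of 1.43 CPM, the median SD was 0.356, and 97.1% had a smaller SD. Of all 16029 genes tested, 99.1% had a smaller SD within groups. The deepest rat (Vulnerable rat 3, 64081679 counts) had 0.553 CPM of Bdnf and the shallowest (Saline rat 2, 41213813 counts) 0.336 CPM; a relation with depth was not tested.

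**Figure D1:**
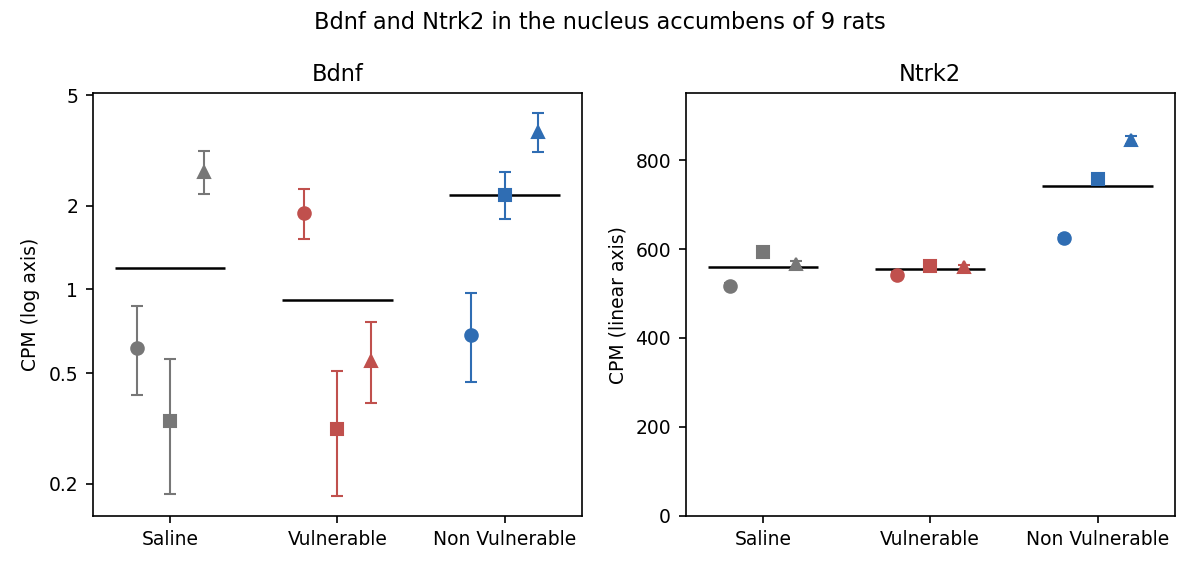
CPM of Bdnf (left, log axis) and Ntrk2 (right, linear axis from 0) in each rat, with circles, squares and triangles for rats 1, 2 and 3, bars for the exact 95% counting interval and black lines for the group mean. Bdnf ran from 0.314 to 3.69 CPM with overlapping groups, while the 3 Non Vulnerable rats had Ntrk2 at 625 to 845 CPM and the other 6 rats at 517 to 594 CPM.

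No comparison of groups passed the test for Bdnf. The Non Vulnerable mean was 2.19 ± 1.5 CPM, the Saline mean 1.2 ± 1.26 CPM and the Vulnerable mean 0.916 ± 0.844 CPM (SD, n = 3 each). For Vulnerable against Non Vulnerable rats the log2 fold change was -1.26 ± 0.91 (SE; adjusted p = 0.31 in the quasi-likelihood test of edgeR). Its 95% interval runs from -3.31 to 0.80, that is, from 0.101 to 1.74 times the Non Vulnerable level. This comparison called 31.5% of all genes tested at an adjusted p under 0.05. Non Vulnerable against Saline rats gave a log2 fold change of 0.86 ± 0.90 (SE; adjusted p = 0.544 in edgeR), with an interval from 0.443 to 7.45 times Saline. Here 14.7% of all genes were called. Changes of the size of a doubling in either direction lie inside the interval against Saline, so they were not excluded for Bdnf with these rats.

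For Vulnerable against Saline rats, Bdnf had a log2 fold change of -0.40 ± 0.91 (SE; adjusted p = 0.959 in edgeR) and an interval from 0.182 to 3.18 times Saline. The mean of both cocaine groups differed from Saline by 0.23 on the log2 scale with SE 0.79 (edgeR adjusted p = 0.964). That mean can move with either group alone. In these comparisons edgeR called 0 of 16029 genes (0%). At an unadjusted p under 0.05 there were 807 and 1391 of the 16029 genes. DESeq2 called 30 and 110, and limma voom called 0 in both. Under the same unadjusted cut, Vulnerable against Non Vulnerable had 7255 genes and Non Vulnerable against Saline 5244. A test for any difference among the 3 groups gave an edgeR adjusted p of 0.538 for Bdnf, with 21.3% of all genes called.

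Ntrk2, the receptor, was strongly counted and was higher in Non Vulnerable rats than in both other groups. By raw counts it ranked between 93 and 183 from the top in each rat, with 24792 to 37457 counts. It stood at 625, 757 and 845 CPM in Non Vulnerable rats 1 to 3. Vulnerable rats 1 to 3 had 543, 562 and 559 CPM, and Saline rats 1 to 3 had 517, 594 and 565 CPM. All 3 Non Vulnerable rats lay above all 6 others, with rat 1 nearest to them, and Vulnerable and Saline rats overlapped. The Non Vulnerable mean was 742.6 ± 111 CPM, the Vulnerable mean 555 ± 10.6 CPM and the Saline mean 559 ± 38.8 CPM (SD, n = 3 each). The Vulnerable rats were the closest together, with a coefficient of variation of 1.92%, against 6.95% in Saline and 14.9% in Non Vulnerable rats.

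Ntrk2 fell in Vulnerable relative to Non Vulnerable rats by 0.42 on the log2 scale with SE 0.12, a level 0.747 times that of Non Vulnerable rats (edgeR adjusted p = 0.0276). The 95% interval for this ratio runs from 0.62 to 0.9. Lower levels in Vulnerable rats were called for 16.4% of all genes tested. The groups did not overlap, in either direction, for 46.7%. By p, Ntrk2 ranked 3643 of 16029, and 62.7% of genes had a smaller absolute log2 fold change. Its difference is therefore one among many in this comparison. The call ended without any 1 of Vulnerable rats 1, 2 and 3, Saline rat 3 and Non Vulnerable rats 2 and 3, where the log2 fold change was -0.43 to -0.32 and the adjusted p in edgeR 0.0542 to 0.0914.

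Against Saline, Ntrk2 was higher in Non Vulnerable rats by a log2 fold change of 0.41 with SE 0.12, or 1.33-fold, with an interval from 1.1-fold to 1.6-fold. The edgeR adjusted p was 0.0497, close to the threshold of 0.05. Higher levels in Non Vulnerable rats were called for 6.81% of all genes. The groups did not overlap, in either direction, for 35%. Leaving out any rat other than Non Vulnerable rat 1 ended this call, where the log2 fold change was 0.30 to 0.46 and the adjusted p in edgeR 0.0671 to 0.194. Calls over all genes fell there too, to 251 (without Saline rat 2) to 2140 (without Vulnerable rat 1). Without Non Vulnerable rat 1 the log2 fold change was 0.50 (edgeR adjusted p = 0.0111). For Vulnerable over Non Vulnerable rats it was then -0.51 (edgeR adjusted p = 0.00526). Calls over all genes rose in this setting, from 2351 of 16029 genes to 3615 of 16218 for Non Vulnerable against Saline. For Vulnerable against Non Vulnerable they rose from 5050 of 16029 to 5841 of 16218. The lower adjusted p of Ntrk2 therefore came with more calls over all genes. The comparisons with Vulnerable and with Saline rats share the Non Vulnerable rats and are not separate evidence.

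Vulnerable and Saline rats did not differ in Ntrk2 by the test, with a log2 fold change of -0.01 and SE 0.12 (edgeR adjusted p = 0.991). The 95% interval runs from 0.824 to 1.2 times Saline. For the mean of both cocaine groups against Saline the log2 difference was 0.20 ± 0.10 (SE; adjusted p = 0.635 in edgeR), and the 3 Non Vulnerable rats alone lay above all Saline rats. Among the 3 groups any difference was called for Ntrk2 at an edgeR adjusted p of 0.044, with 21.3% of all genes called. Leaving out any rat but Non Vulnerable rat 1 ended that call too, at an adjusted p of 0.0727 to 0.165 in edgeR.

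**Figure D2:**
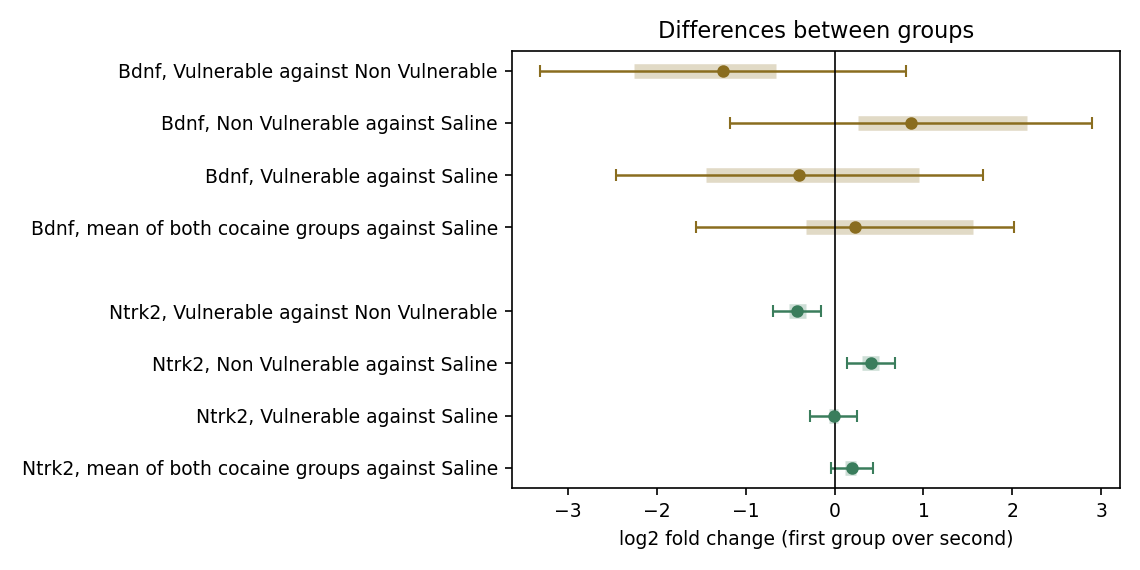
Log2 fold changes (first group over second) of Bdnf and Ntrk2 in 4 comparisons; points are edgeR estimates, thin bars 95% intervals and pale bands the range when each of the 9 rats was left out in turn. All Bdnf intervals cross 0, and the Ntrk2 intervals against Non Vulnerable rats, from -0.69 to -0.15 and from 0.14 to 0.68, do not.

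The position of Non Vulnerable rat 1 depended on the scaling of the libraries. With TMM scaling its Ntrk2 level of 625 CPM lay above the highest Saline rat at 594 CPM and the highest Vulnerable rat at 562 CPM. Median-of-ratios scaling gave 625 CPM against 589.8 and 571 CPM, and upper-quartile scaling 635.6 against 595 and 558 CPM. Scaled by library totals only, it stood at 564 CPM, below the highest Saline rat at 602 CPM and the highest Vulnerable rat at 586 CPM. In that setting Ntrk2 had a log2 fold change of -0.30 for Vulnerable over Non Vulnerable (edgeR adjusted p = 0.122) and 0.31 for Non Vulnerable over Saline (edgeR adjusted p = 0.169). Non Vulnerable rats 2 and 3 lay above all 6 Saline and Vulnerable rats under each of the 5 scalings. Non Vulnerable rat 1 is also the rat whose own 10 most counted genes took 18.23% of its counts. A further setting left out the 10 genes most counted over all rats together, which need not be its own 10. There it lay at 709.96 CPM, where the highest Saline rat had 686 and the highest Vulnerable rat 650 CPM. The call against Saline was also lost in this setting (edgeR adjusted p = 0.0674) and under median-of-ratios scaling (edgeR adjusted p = 0.0529). In both, the groups did not overlap.

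**Figure D3:**
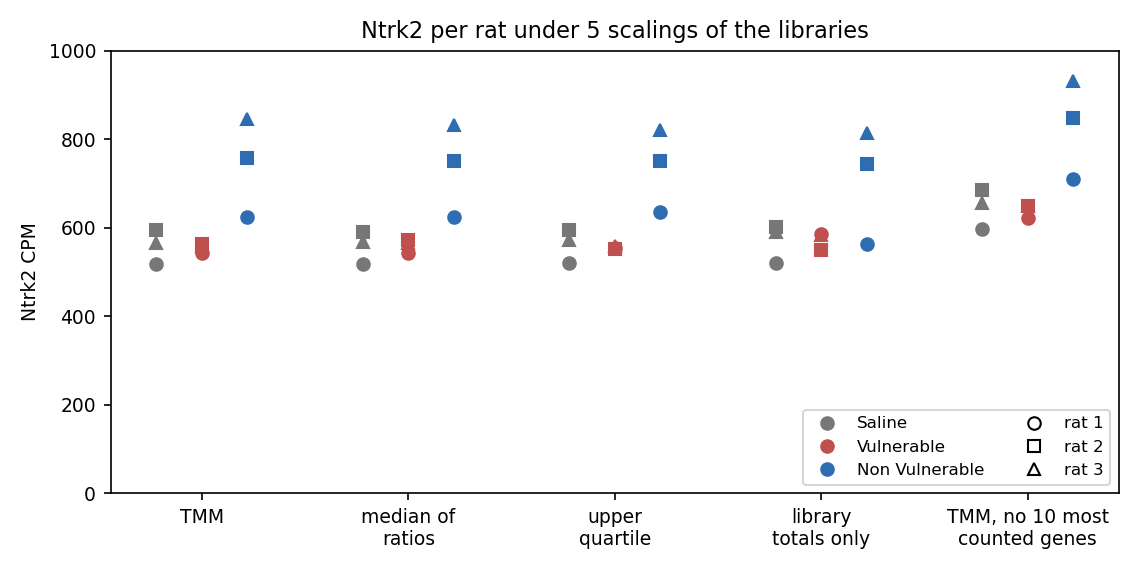
Ntrk2 CPM per rat under 5 scalings of the libraries; colours are groups and marker shapes rat numbers. Non Vulnerable rat 1 (blue circle) lies above all Saline and Vulnerable rats except under library totals only, where it stands at 564 CPM.

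Ntrk2 counts agreed between libraries of a rat within counting noise. Single libraries held 6061 to 9532 counts, and the chi-square test over the 4 libraries of a rat gave unadjusted p values from 0.125 to 0.889 in the 9 rats. Taken 1 library per rat, the log2 fold change of Vulnerable over Non Vulnerable rats was -0.37, -0.43, -0.42 and -0.40 for technical replicates a to d. The Ntrk2 SD of log2 CPM within groups was 0.141, and 39% of the 385 genes within 2-fold of its mean had a smaller SD.

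Ligand and receptor were compared within each rat as the log2 ratio of Bdnf to Ntrk2 counts, which needs no scaling between libraries. Only differences of the ratio are read, since its level depends on transcript length. Per 1000 Ntrk2 counts, and without the prior, Non Vulnerable rats 1 to 3 had 1.1, 2.9 and 4.36 Bdnf counts. Saline rats had 1.19, 0.565 and 4.68, and Vulnerable rats 3.47, 0.559 and 0.988. The groups overlapped, and the rats with a high ratio were the 4 rats with high Bdnf. Non Vulnerable rats had a mean log2 ratio of -8.66 ± 0.985, Saline rats of -9.31 ± 1.47 and Vulnerable rats of -9.56 ± 1.28 (SD, n = 3 each). Vulnerable and Non Vulnerable rats differed by -0.91 on this scale (exact two-sided permutation test, p = 0.4, adjusted over 3 pairs 0.7). Non Vulnerable and Saline rats differed by 0.66 and Vulnerable and Saline rats by -0.25 (exact permutation test, p = 0.7 for each, adjusted 0.7). With 3 rats against 3 this test cannot go below p = 0.1.

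Across the 9 rats log2 CPM of Bdnf and Ntrk2 correlated at Pearson r = 0.572 (exact permutation p = 0.115) and Spearman rho = 0.467 (exact permutation p = 0.213), with both p values 0.213 after adjustment over the 2. Without the 2 rats farthest from the median of Bdnf, r was 0.461 (7 rats). On deviations from the group means r was 0.386 and rho 0.2, given as a description. Without the 2 rats farthest from the median of the Bdnf deviations, that r was 0.615 (7 rats). Saline rat 3 and Vulnerable rat 1 had high Bdnf with Ntrk2 of 565 and 543 CPM, inside the range of the low-Bdnf rats.

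The genes whose log2 CPM followed each of the 2 most closely over the 9 rats were looked up among the 13726 other genes with a mean of at least 1 CPM. The rats and their libraries are shared by all these values, and the named IDs are the extremes of many correlations. Nearest to Bdnf were ENSRNOG00000023601 (r = 0.974) and ENSRNOG00000009862 (r = 0.973), and most opposite were ENSRNOG00000060054 (r = -0.966) and ENSRNOG00000017752 (r = -0.963). Within groups, on deviations from the group means, these correlations were 0.976, 0.977, -0.96 and -0.969. ENSRNOG00000009862 stood at 115, 66.6 and 91.8 CPM in Vulnerable rats 1 to 3, at 87.4, 77.3 and 166 CPM in Saline rats and at 101, 144 and 179 CPM in Non Vulnerable rats. It was picked for following Bdnf, so that it shares its high rats is given as a description. None of these 4 IDs passed the test in any of the 4 comparisons (edgeR adjusted p from 0.164 for ENSRNOG00000009862 in Vulnerable against Non Vulnerable rats to 0.995 for ENSRNOG00000017752 in Vulnerable against Saline rats). A correlation with Bdnf over 0.9 was found for 53 genes and one under -0.9 for 42.

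Nearest to Ntrk2 were ENSRNOG00000015318 (r = 0.983) and ENSRNOG00000019492 (r = 0.978), and most opposite were ENSRNOG00000016790 (r = -0.973) and ENSRNOG00000017404 (r = -0.971). Within groups these correlations were 0.957, 0.953, -0.904 and -0.902. ENSRNOG00000015318 had 39.4, 46.9 and 56.6 CPM in Non Vulnerable rats 1 to 3 and 29.6 to 35.8 CPM in the 6 other rats. ENSRNOG00000017404 ran the other way, with 191, 171 and 159.5 CPM in Non Vulnerable rats and 208 to 222 CPM in the 6 other rats. These IDs were picked for following Ntrk2, its difference between groups included, so their differences are a description. For Vulnerable over Non Vulnerable rats the log2 fold changes were -0.60 and -0.59 for the first 2 and 0.26 and 0.32 for the last 2. For Non Vulnerable over Saline rats they were 0.51, 0.54, -0.24 and -0.29. A correlation over 0.9 with Ntrk2 was found for 657 genes (4.79%) and one under -0.9 for 153.

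**Figure D4:**
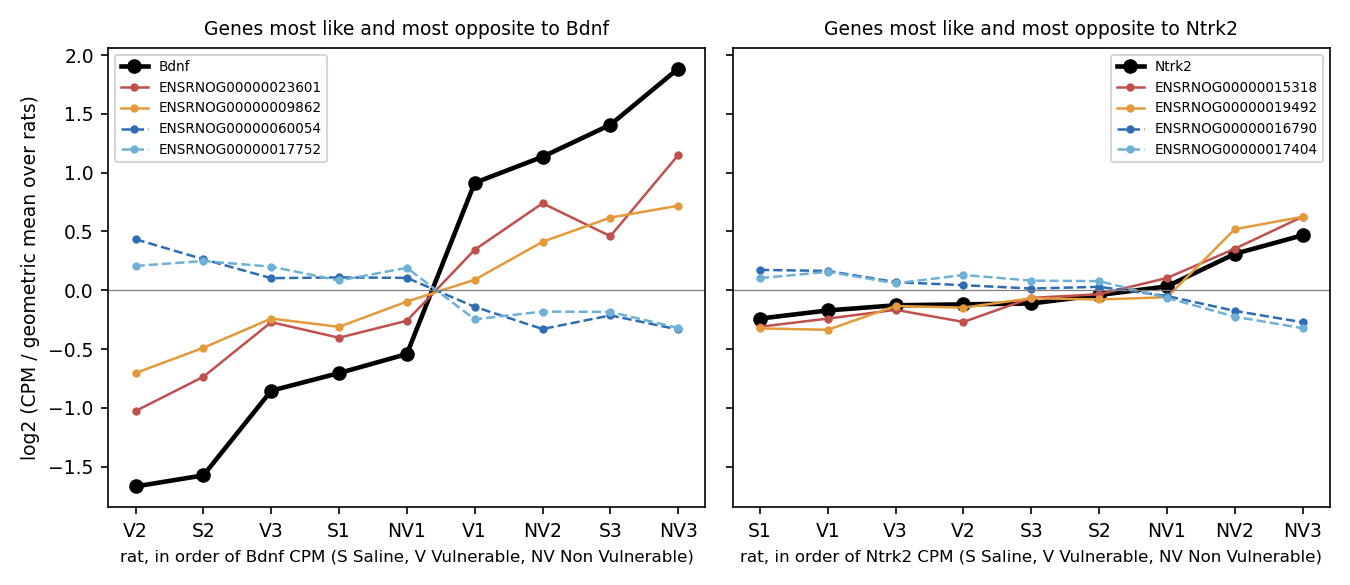
Log2 of CPM over the gene's geometric mean in each rat, with rats in order of Bdnf (left) or Ntrk2 (right); the black line is the named gene, solid coloured lines the 2 IDs most like it and dashed lines the 2 most opposite. The 4 rats with high Bdnf come from all 3 groups, while the 3 highest rats for Ntrk2 are the Non Vulnerable rats.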

How the data were processed

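The deposited files hold raw counts of reads for each Ensembl ID, 1 table per library. Per the labels' protocols, polyA RNA was made into strand-specific libraries. STAR, HTSeq 0.5.3 and bcl2fastq 2.17.1.14 are named in the processing notes of the submitters (per the submitters' processing notes). Strand setting, annotation and build: not given in the sources used here. How reads in overlapping or antisense genes were assigned is therefore not known.

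The 4 libraries of each rat were summed and counted as 1 sample; that the rats are separate animals rests on their numbering in the labels. The test was edgeR 4.0.16 (R 4.3.3) on all 9 rats: filterByExpr (16029 genes kept), TMM, robust quasi-likelihood fit, 1 coefficient per group, Benjamini-Hochberg over all genes tested, call at adjusted p under 0.05. SE came from the F statistic, and a prior count of 2 entered log2 CPM and the log2 ratio. DESeq2 1.42.0 and limma 3.58.1 were alternatives, and permutation tests used SciPy 1.17.1. The genes, 15 lists (193 symbols) and tests were chosen with earlier results of these data known. Named besides Bdnf and Ntrk2 are the 2 IDs most like and the 2 most opposite to each; the lists matched 0 IDs and were not used. Overlap of groups under each scaling, and alternatives for the test of any difference, were added after seeing the data.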

Additional observations from a re-analysis of the deposited data

Results flagged for a closer look

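Ntrk2 departed from the shared Saline rats differently in the cocaine groups: the test of the difference itself gave a log2 value of -0.42 for Vulnerable minus Non Vulnerable rats (edgeR adjusted p = 0.0276). The Saline level cancels in it, so this repeats the difference between the cocaine groups given above and is not a separate result. With 3 rats per group, outlying rats were not tested for.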

How the results depend on the processing

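No Bdnf comparison passed the threshold in the alternatives run (DESeq2 gave no adjusted p for the mean of both cocaine groups against Saline, unadjusted p = 0.765), while its sign changed in 2 comparisons. For Vulnerable against Saline rats its log2 fold change was 0.24 with technical replicate b alone and -1.45 to 0.95 with a rat left out. With a rat left out it ran from -2.25 to -0.66 for Vulnerable against Non Vulnerable, 0.26 to 2.16 for Non Vulnerable against Saline and -0.33 to 1.56 for the mean of both cocaine groups, negative without Vulnerable rat 1, Saline rat 1 or 2 or Non Vulnerable rat 3. The adjusted p for any difference was 0.183 to 0.88. Log2 ratios of Bdnf to Ntrk2 ran from -1.62 to -0.37, 0.016 to 1.46 and -0.96 to 0.55 (Vulnerable against Non Vulnerable, Non Vulnerable against Saline, Vulnerable against Saline). In the last they were 0.29 without Vulnerable rat 2 and 0.55 without Saline rat 3.

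Ntrk2 kept its direction for Vulnerable against Non Vulnerable in all 23 alternatives and its call in 15. It lost it at -0.30 with library totals only and -0.37 with only the compared groups, and ran from -0.51 to -0.32 with a rat left out. Non Vulnerable against Saline kept its direction in all 23 and its call in 5. The values that lost it were 0.40 with median-of-ratios scaling, 0.31 with library totals only, 0.36 without the 10 most counted genes, 0.41 with no filter, 0.40 with limma voom and 0.40 with only the compared groups. Single technical replicates a to d gave 0.37, 0.42, 0.39 and 0.40, and leaving out a rat 0.30 to 0.50. The cause was not tested. Ntrk2 in Vulnerable against Saline rats turned to 0.0048 with median-of-ratios scaling, library totals only and DESeq2, and ran from -0.067 to 0.036 with a rat left out, among them 0.006 without Vulnerable rat 1, 0.036 without Saline rat 2 and 0.025 without Saline rat 3. For the mean of both cocaine groups it ran from 0.12 to 0.25. The adjusted p for any difference was 0.0504 with median-of-ratios scaling and 0.0100 to 0.165 with a rat left out.

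Deviations of same-numbered rats in different groups correlated at -0.137 to 0.19, with 2 of 9 pairs over 0.1. This cannot settle whether the shared numbers pair the rats, since rats of different numbers were not compared. With the rat number as a replicate block, Ntrk2 had -0.41 and 0.40 (edgeR adjusted p = 0.0229 and 0.04), and no call changed. The list counts under other settings were not run, since no list could be matched. Counting error is larger for Bdnf, at 14 to 149 counts per rat, than for Ntrk2.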
